A study of Mus musculus with 20 samples.

Results

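This account follows the genes that make, carry and sense retinoic acid in the fetal mouse heart after the pregnant dam was dosed with 2,3,7,8-tetrachlorodibenzo-p-dioxin (TCDD). The genes were Aldh1a1, Aldh1a2, Rbp4, Crabp1, Crabp2, Rara, Rarb, Rxra and Rxrb, and the members were all probe sets that the array's annotation gave to these symbols alone. Of the 9 genes, 8 had a probe set and together had 10 of the 12422 probe sets on the array; the annotation used here gave none to Rarb, so Rarb has no value here. Of these 10, 7 probe sets from 6 genes reached the level filter, which asked for at least 4 arrays at or above their own 40th percentile and kept 8097 probe sets. The other 3 (1 of the 2 for Aldh1a1, and those for Crabp1 and Crabp2) lay below it. The rule that picks the probe sets uses no measured value, but the genes were named with earlier results of these data known.

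Total RNA of whole fetal hearts collected on gestation day 17.5 was hybridised to 20 Affymetrix MG-U74Av2 arrays. The 8 control arrays were from fetuses of dams given corn oil by gavage on gestation day 14.5, and 4 arrays each were from fetuses of dams given TCDD at 1.5, 3 or 6 µg/kg. The labels of 19 arrays give this treatment day, while that of array 1 at 1.5 µg/kg gives another, much earlier day; which is right is not known here, and the array was kept in its group. The labels used here give neither the strain, nor the sex, nor whether hearts of a litter were pooled, so the p-values measure only the spread between these arrays. The values are MAS5 signals, linear intensities scaled to a trimmed mean of 500 in every array, and a signal of 1 probe set cannot be set against that of another.

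Retinoic acid is made from vitamin A in 2 oxidation steps. Retinol is carried in blood by the product of Rbp4, and retinaldehyde is oxidised to retinoic acid by the dehydrogenases of the Aldh1a family; the Crabp proteins bind retinoic acid in the cytosol, and pairs of an Rar and an Rxr receptor bind DNA and switch their target genes according to whether retinoic acid is bound. In the embryonic heart Aldh1a2 is the main source of retinoic acid, and it is known there as a gene of the epicardium. TCDD is a ligand of the aryl hydrocarbon receptor, a transcription factor that binds DNA with its partner Arnt at a short core motif, and disturbed retinoid handling is a known feature of its toxicity.

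To show the promoters of the genes whose signals differed most between groups, with that of Rarb as the textbook retinoic acid target, 4 windows of 300 bases are printed, each from 250 bases before to 50 after an annotated start. They are RefSeq sequences of assembly GRCm38.p6, written 5′ to 3′ on the gene's strand. Capitals mark receptor hexamers (AGGTCA itself, and its variants GGGTCA, with also AGTTCA, and lastly GGTTCA) and the aryl hydrocarbon receptor core GCGTG, each on either strand.
Aldh1a1, chr19:20601718-20602017, plus strand: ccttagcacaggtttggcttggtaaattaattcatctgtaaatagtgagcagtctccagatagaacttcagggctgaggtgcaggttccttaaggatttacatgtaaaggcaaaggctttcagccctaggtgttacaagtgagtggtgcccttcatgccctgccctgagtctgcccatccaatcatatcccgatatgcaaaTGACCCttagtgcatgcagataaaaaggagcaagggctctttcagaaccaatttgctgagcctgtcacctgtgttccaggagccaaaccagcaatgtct
Aldh1a2, chr9:71215539-71215838, plus strand: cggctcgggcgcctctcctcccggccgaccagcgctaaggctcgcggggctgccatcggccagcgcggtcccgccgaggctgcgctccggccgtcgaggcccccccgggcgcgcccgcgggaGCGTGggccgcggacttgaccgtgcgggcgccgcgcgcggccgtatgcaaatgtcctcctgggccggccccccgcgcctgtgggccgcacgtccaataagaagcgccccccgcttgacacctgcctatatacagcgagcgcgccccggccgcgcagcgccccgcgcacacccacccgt
Rara, chr11:98939461-98939760, plus strand: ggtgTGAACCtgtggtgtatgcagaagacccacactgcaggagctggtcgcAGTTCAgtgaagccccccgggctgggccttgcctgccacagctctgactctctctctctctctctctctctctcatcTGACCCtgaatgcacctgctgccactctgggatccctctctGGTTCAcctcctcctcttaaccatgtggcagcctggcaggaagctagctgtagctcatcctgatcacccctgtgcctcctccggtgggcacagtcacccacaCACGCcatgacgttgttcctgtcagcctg
Rarb, chr14:16575427-16575726, minus strand: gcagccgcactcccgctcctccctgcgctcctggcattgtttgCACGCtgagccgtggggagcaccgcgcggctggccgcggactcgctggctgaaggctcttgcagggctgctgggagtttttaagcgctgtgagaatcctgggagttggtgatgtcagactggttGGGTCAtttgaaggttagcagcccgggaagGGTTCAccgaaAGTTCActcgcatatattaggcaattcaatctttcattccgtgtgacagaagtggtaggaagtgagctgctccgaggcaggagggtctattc

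The Rarb window held GGTTCA and, after it, AGTTCA as a direct repeat with a 5-base spacer, at positions -53 to -37 from its start. Such a repeat was found in 0.0974% of 32851 windows of the same length. The printed Aldh1a1 window held 1 hexamer, at -49 to -44 on the opposite strand; the second annotated start of Aldh1a1 had none. The Aldh1a2 window held no hexamer and 1 receptor core, at -128 to -124. The Rara window held 4 hexamers and 1 core; it is 1 of 4 annotated for Rara, shown because it held the most hexamers. Single motifs of this length are common, since 43.7% of all windows held a hexamer and 32.4% held the core. Among the member genes 8 had a window; 6 of their 15 windows held a hexamer and 8 held the core. No window for Crabp2 was matched. These matches describe letters only, and binding was not measured.

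No retinoid gene passed the test at any dose. Signals of Aldh1a1, Aldh1a2 and Rara were on average higher at 1.5 and 3 µg/kg than in controls, and those of Aldh1a1 and Aldh1a2 were near or below the control mean at 6 µg/kg, but none of these differences was called. With limma and Benjamini-Hochberg adjustment over the 8097 kept probe sets, 0 of the 7 retinoid probe sets were called at 1.5 µg/kg, where 0.21% of all probe sets were called (17). At 3 µg/kg 0 of 7 were called, against 0.0247% of all (2). At 6 µg/kg 0 of 7 were called, against 0.0741% of all (6). At an unadjusted p under 0.05, 1 of 7 passed at 1.5 µg/kg (Rara), 1 at 3 µg/kg (Aldh1a1) and 0 at 6 µg/kg, where the shares of all kept probe sets were 12.6%, 5.72% and 9.15%. The 3 comparisons share their 8 control arrays.

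Of the 7 retinoid probe sets, 6, 6 and 5 had a difference above 0 at 1.5, 3 and 6 µg/kg, with median log2 fold changes of 0.26, 0.35 and 0.16. Over all kept probe sets 51.9%, 51.2% and 49.7% were above 0, with medians of 0.01, 0.00 and -0.00. These counts describe the 7 probe sets that passed the filter, and were not tested. Fold changes here are on the scale log2(signal + 32), which makes changes of dim probe sets look smaller. The 95% intervals around them reached between 0.37 and 0.68 to each side, so that differences smaller than that are not resolved here.

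**Figure D1:**
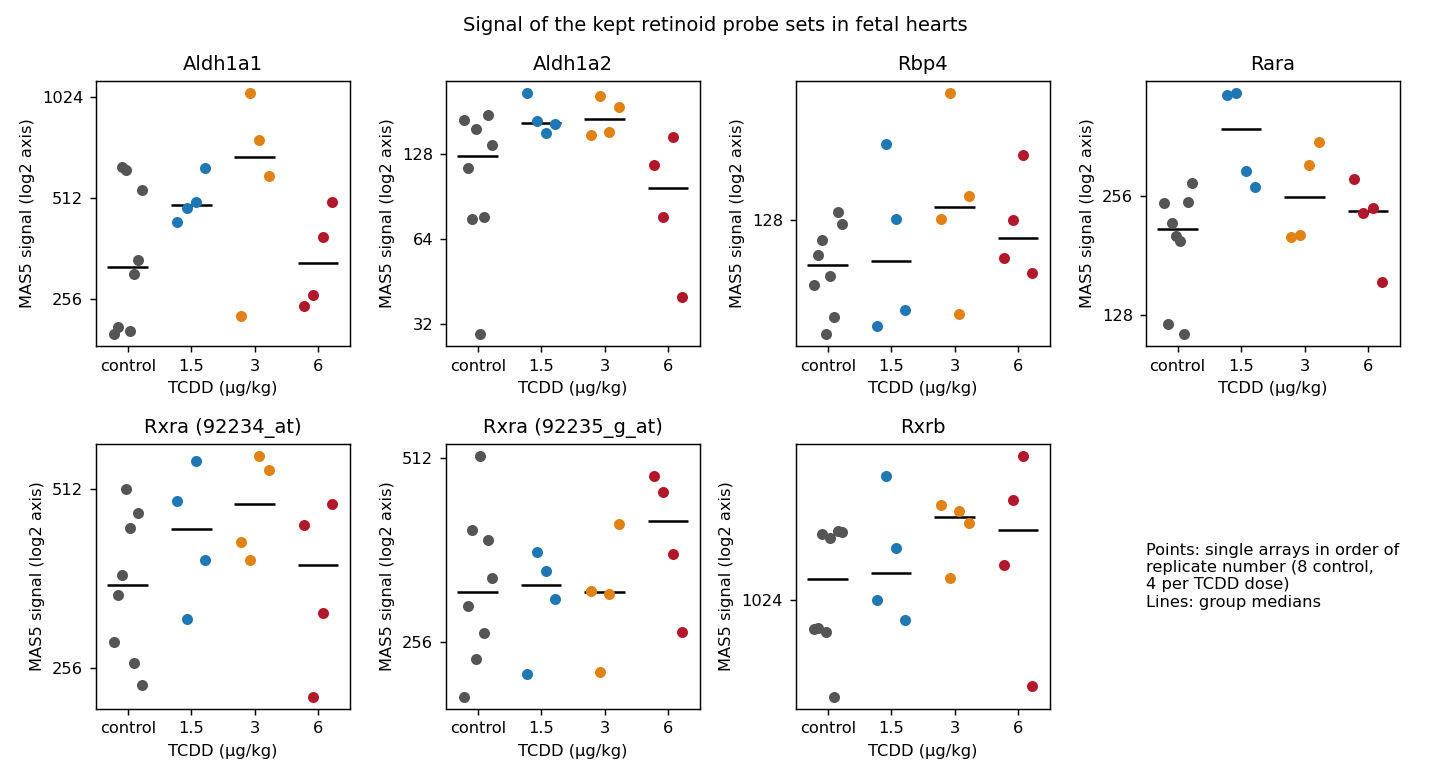
MAS5 signal (log2 axis) of the 7 retinoid probe sets kept by the filter in each of 20 arrays, by TCDD dose; points are arrays and lines are group medians. Every dose group overlaps the controls for every probe set. The 4 Aldh1a2 points at 6 µg/kg (highest 147) lie below all 8 at 1.5 and 3 µg/kg (lowest 150.0). For Rara, 3 of the 4 points at 1.5 µg/kg lie above the highest control of 277. How many of all kept probe sets show either pattern was not counted.

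**Figure D2:**
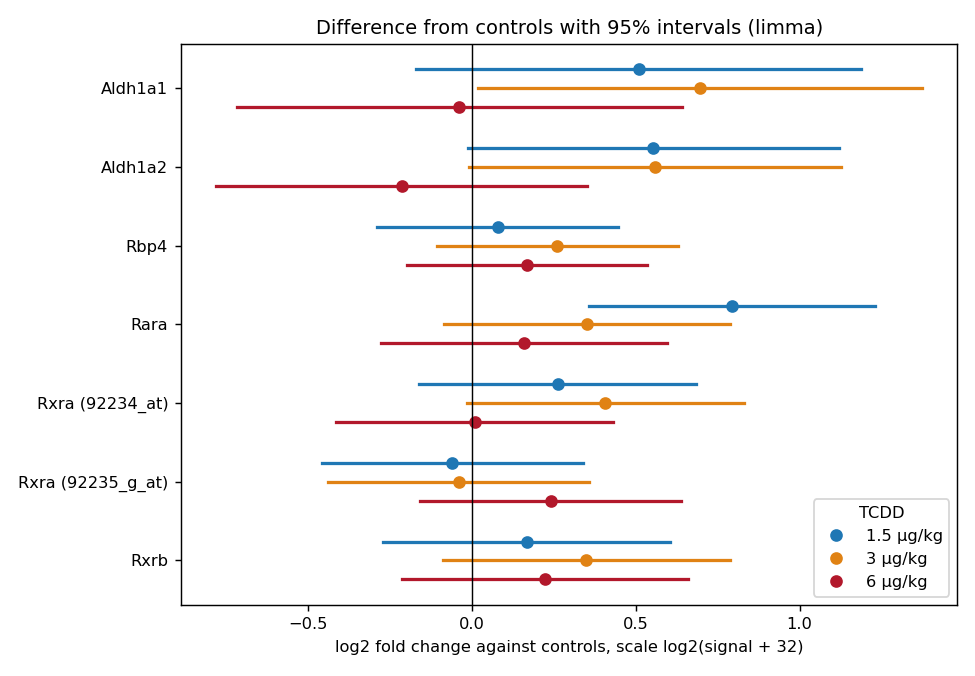
Difference of each dose group from the 8 controls for the 7 kept retinoid probe sets, as log2 fold change on the scale log2(signal + 32) with its 95% interval from limma. The largest is that of Rara at 1.5 µg/kg (0.79), and apart from it the interval of Aldh1a1 at 3 µg/kg (0.02 to 1.37) leaves out 0.

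Aldh1a1 encodes a retinaldehyde dehydrogenase of broad tissue distribution, at chr19:20492583-20643463 in GRCm38.p6. Its kept probe set (100068_at) read between 201 and 631 in the 8 controls, with a median of 318. At 1.5 µg/kg arrays 1 to 4 read 433, 478, 498 and 628, all above the control median and none above the highest control. At 3 µg/kg they read 228, 1050.4, 759 and 593, so that 2 of them exceeded every control while array 1 lay among the lowest. At 6 µg/kg they read 243, 262, 392 and 497, inside the control range. The group means were 381 ± 187 (SD, n = 8) in controls and 509 ± 83.8, 657 ± 343 and 349 ± 119 (SD, n = 4 each) at 1.5, 3 and 6 µg/kg. The log2 fold changes were 0.51, 0.70 and -0.04 with a standard error of 0.33, and limma's adjusted p was 0.54, 0.86 and 0.98. Without array 1 at 3 µg/kg, the log2 difference of that dose from controls was 1.11 in place of 0.70, and without array 2 it was 0.42; neither was called.

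Across all 20 arrays the Aldh1a1 signal spanned 5.23-fold, and it spanned 3.14-fold among the controls alone. A second Aldh1a1 probe set (161956_at), below the filter at 19.8 to 118, did not follow it: over the 20 arrays the 2 had a Pearson correlation of log2 signals of 0.03. Probe sequences were not used here, so signal from the close paralog Aldh1a7 cannot be told apart from that of Aldh1a1. The probe set of Aldh1a7 itself differed from controls by log2 0.11, 0.30 and 0.07, none called; it was looked at because of this similarity.

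Aldh1a2 encodes the retinaldehyde dehydrogenase that supplies most retinoic acid to the embryo, at chr9:71215789-71296243. Its probe set (101707_at) read between 29.6 and 176 in controls, with a median of 127. At 1.5 µg/kg the arrays read 211, 168, 153 and 164, and at 3 µg/kg 150.0, 207, 154 and 189. All 8 of these lay above the control median, 3 of them above the highest control. At 6 µg/kg they read 118, 76.7, 147 and 40.1, of which 1 lay above the control median. Means were 117 ± 52.6 (SD, n = 8) in controls and 174 ± 25.6, 175 ± 27.5 and 95.4 ± 46.9 (SD, n = 4 each) by rising dose. The log2 fold changes were 0.55, 0.56 and -0.21 with a standard error of 0.27, and none was called by limma (adjusted p 0.41, 0.86 and 0.82).

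The lowest arrays of Aldh1a2 were control 5 at 29.6 and array 4 at 6 µg/kg at 40.1. Without the latter alone the difference at 6 µg/kg was 0.03 in place of -0.21. Without it and the 3 controls that share its high β-actin ratio, described below, the difference was 0.08. In whole hearts fewer cells of a type and less RNA per cell cannot be told apart, for this and for every gene here.

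Among the carriers, Rbp4 encodes the retinol carrier of blood, made mainly by liver, at chr19:38116620-38125321. Its probe set (96047_at) read between 85.2 and 132 in controls, with a median of 109. At 1.5 µg/kg the arrays read 87.7, 168, 129 and 92.8, at 3 µg/kg 129, 202, 91.6 and 139.7, and at 6 µg/kg 112, 128, 162 and 106. Each dose group held at least 1 array above every control and at least 1 below the control median. The log2 fold changes were 0.08, 0.26 and 0.17 with a standard error of 0.18, and limma's adjusted p was 0.89, 0.93 and 0.79.

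Crabp1 (98108_at, chr9:54764748-54773110) and Crabp2 (100127_at, chr3:87948693-87953372), the cytosolic retinoic acid binding proteins, were both below the filter. Crabp1 read 3.70 to 91.4 and Crabp2 7.00 to 48.9 over the 20 arrays, levels at which the order of arrays carries little. Crabp2 is known as the form that delivers retinoic acid to the nucleus. In a limma fit of all 12422 probe sets without the filter, 0 of the 3 retinoid probe sets below it were called at any dose. The lowest adjusted p among these 3 was 0.79, 0.98 and 0.85 by rising dose, and the lowest unadjusted p was 0.31, 0.58 and 0.44.

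Rara encodes the retinoic acid receptor found in most tissues, at chr11:98927800-98974942. Its probe set (92901_at) read between 114 and 277 in controls, with a median of 211. At 1.5 µg/kg the arrays read 461, 466, 295 and 269.8, and 3 of these 4 lay above every control. At 3 µg/kg they read 201, 203, 306 and 351, 2 of them above every control and the others below the control median. At 6 µg/kg they read 282, 231, 239 and 155. Means were 203 ± 58.4 (SD, n = 8) in controls and 373 ± 105, 265 ± 75.0 and 227 ± 53.0 (SD, n = 4 each) at the 3 doses.

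The log2 fold change of Rara at 1.5 µg/kg was 0.79, with a 95% interval of 0.36 to 1.23. It was the largest of any retinoid probe set. Its unadjusted p of 0.00102 became 0.126 in limma after adjustment over all kept probe sets, so it was not called. At 3 and 6 µg/kg the fold changes were 0.35 and 0.16, with adjusted p 0.90 and 0.83. Over every alternative run the value at 1.5 µg/kg lay between 0.61 and 0.92, and its lowest adjusted p was 0.0847.

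Rarb (chr14:16430839-17082331) encodes the receptor whose own gene is a classical retinoic acid target through the direct repeat printed above, and is named only. Rxra (chr2:27676445-27763319) encodes the common partner of Rar and of several other nuclear receptors, and in mice its loss thins the ventricular wall. Its first probe set (92234_at) read between 240.2 and 512 in controls, with a median of 354. At 1.5 µg/kg it read 489.8, 309.9, 570.1 and 389, at 3 µg/kg 417, 389.6, 583 and 551, and at 6 µg/kg 446, 229, 317 and 483. All 4 arrays at 3 µg/kg lay above the control median, and 2 of them above every control. The log2 fold changes were 0.26, 0.41 and 0.01 with a standard error of 0.20.

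The other Rxra probe set (92235_g_at) read between 208 and 516 in controls, with a median of 309. It read 227, 359, 335 and 301 at 1.5 µg/kg, 309.9, 229, 307 and 399.9 at 3 µg/kg, and 478, 451, 356 and 266 at 6 µg/kg. None of these 12 values exceeded the highest control. Its log2 fold changes were -0.06, -0.04 and 0.24 with a standard error of 0.19, so the 2 probe sets of Rxra gave different orders of the doses. Their log2 signals had a Pearson correlation of -0.00 over the 20 arrays. For the first probe set limma's adjusted p was 0.63, 0.88 and 0.99 by rising dose, and for the second 0.93, 0.99 and 0.71.

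Rxrb (chr17:34031812-34038403) encodes a second Rxr receptor. Its probe set (102398_at) read between 690.1 and 1361 in controls, with a median of 1117. It read 1023, 1702, 1270.3 and 946 at 1.5 µg/kg, 1513, 1124, 1475 and 1405 at 3 µg/kg, and 1185, 1545, 1850.5 and 722 at 6 µg/kg. At 3 µg/kg 3 of 4 arrays lay above every control, and at 6 µg/kg the group held both the highest array and the second lowest of all 20. The log2 fold changes were 0.17, 0.35 and 0.22 with a standard error of 0.21, and limma's adjusted p was 0.79, 0.90 and 0.76. With 1 array left out the difference lay between 0.00410 (without array 2 of the dose) and 0.28 (without its array 4) at 1.5 µg/kg, and between 0.0400 (without array 3) and 0.48 (without array 4) at 6 µg/kg.

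Set against each other, the doses gave no called retinoid gene either. All 8 Aldh1a2 arrays at 1.5 and 3 µg/kg (150.0 or more) read above all 4 at 6 µg/kg (147 or less). This split was not tested, and how many of all kept probe sets split so was not counted. Between 6 and 1.5 µg/kg the log2 difference was -0.77 for Aldh1a2, -0.63 for Rara and -0.55 for Aldh1a1, and between 6 and 3 µg/kg it was -0.77 for Aldh1a2 and -0.73 for Aldh1a1. With limma 0 of 7 were called between 6 and 1.5 µg/kg, where 0.346% of all were (28), although 2 of 7 had an unadjusted p under 0.05, against 15.6% of all, namely Rara (0.0159, adjusted 0.206) and Aldh1a2 (0.0235, adjusted 0.24). Between 6 and 3 µg/kg 0 of 7 were called, against 0.0371% of all (3), with 1 at an unadjusted p under 0.05, against 11.6% of all, Aldh1a2 (0.0226, adjusted 0.347). Between 3 and 1.5 µg/kg 0 of 7 were called, against 0% of all, and 0 of 7 had an unadjusted p under 0.05, against 2.79% of all.

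For the mean of the 3 doses against controls 0 of 7 were called by limma, against 0.0494% of all (4), and 1 of 7 had an unadjusted p under 0.05, against 8.68% of all. All 7 differences were above 0 in that comparison, between 0.05 and 0.43, beside 50.4% of all kept probe sets. In the joint test of the 3 doses 0 of 7 were called, against 0.185% of all (15), with 2 at an unadjusted p under 0.05, against 12.5% of all, Rara (adjusted 0.236) and Aldh1a2 (adjusted 0.362). For a linear trend over dose 0 of 7 were called, against 0.0618% of all (5), and 0 of 7 had an unadjusted p under 0.05, against 7.22% of all.

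The retinoid probe sets varied from array to array, and some pairs of them varied in part together. The highest Pearson correlations of log2 signals over the 20 arrays were 0.60 between the second Rxra probe set and Rxrb, 0.58 between Rbp4 and Rxrb, 0.55 between Aldh1a2 and Rara, and 0.53 between Rara and Rxrb. With each group's mean removed these were 0.67, 0.52, 0.41 and 0.59. The 2 dehydrogenases Aldh1a1 and Aldh1a2 had 0.36, and 0.12 after each group's mean was removed. These values describe signals read from the same arrays, and were not tested.

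The genes whose pattern over the 20 arrays was most like that of Aldh1a1 were Wfdc2 (a secreted epithelial protein, r = 0.92), Cyp2f2 (a cytochrome P450 known in mouse from airway club cells, r = 0.92) and Reg3g (a secreted antimicrobial lectin of epithelia, r = 0.90). With group means removed, r was 0.91, 0.92 and 0.90. Their signals spanned 22.7 to 1091 for Wfdc2, 84.0 to 566 for Cyp2f2 and 11.8 to 1612 for Reg3g, from arrays in which they were dim to arrays in which they were bright. The 6 arrays of lowest Aldh1a1 signal, which included controls and arrays at 3 and 6 µg/kg, were also those in which Wfdc2 and Reg3g were lowest.

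**Figure D3:**
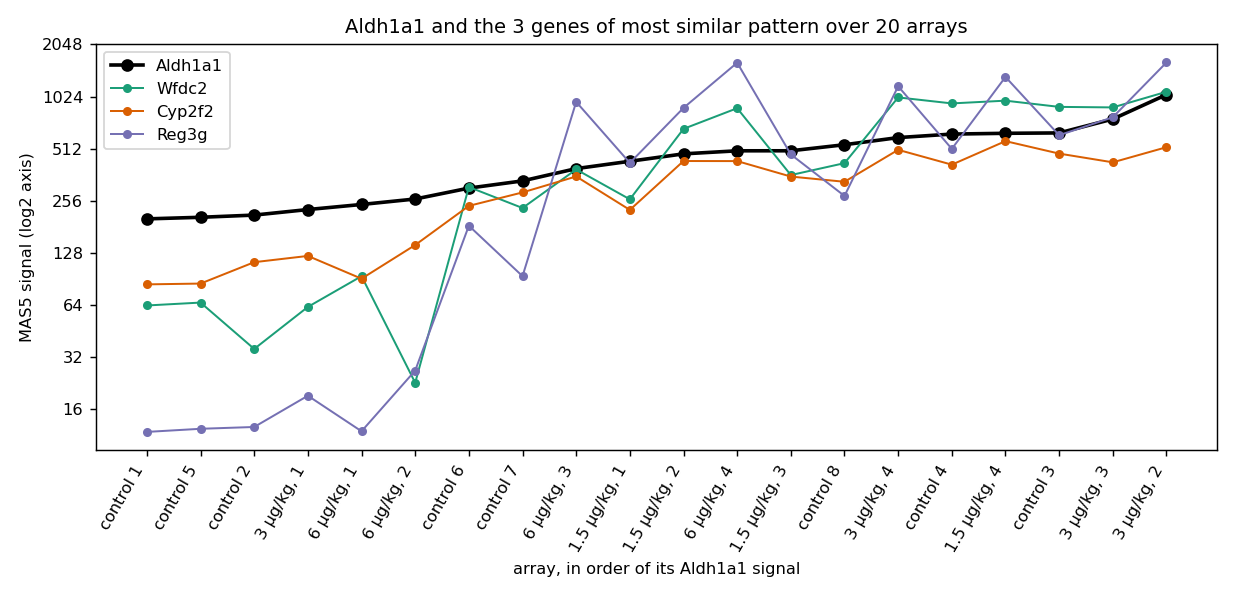
MAS5 signal (log2 axis) of Aldh1a1 and of the 3 genes with the highest Pearson correlation to it, with the 20 arrays ordered by their Aldh1a1 signal from 201 to 1050.4. Wfdc2, Cyp2f2 and Reg3g (r = 0.92, 0.92 and 0.90) are dim in the arrays at the left and bright in those at the right, and both ends hold control and TCDD arrays.

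For Rara the most similar genes were Jup (plakoglobin of cell junctions, r = 0.86), Eif4ebp2 (a repressor of translation initiation, r = 0.84) and Anpep (an aminopeptidase, r = 0.84). With group means removed, r was 0.77, 0.74 and 0.72. Jup was itself called by limma at 1.5 µg/kg (log2 fold change 0.79, adjusted p 0.0388). For Aldh1a2 the most similar genes were Rab11fip5 (0.80), Clasrp (0.80) and Zfp651 (0.77). For Rbp4 they were Gm20362 (0.75), Prrc1 (0.74) and Tpbg (0.70), and for Rxrb Inpp1 (0.83), Igkv14-111 (0.83) and Tcirg1 (0.81). The first Rxra probe set was most like Hic1 (0.71), Zfp574 (0.67) and Cdc26 (0.64), and the second most like Limk2 (0.90), Slpi (0.83) and Miip (0.83). With so many probe sets to choose from, the highest correlations are high by selection.

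Levels of 11 marker lists for cells that a dissected heart sample could hold, and the β-actin ratio described below, were set beside each of the 7 retinoid probe sets, which gave 84 relations over the 20 arrays, each tested by 100000 permutations. Of these 1 passed Benjamini-Hochberg adjustment, that of Aldh1a1 with the epicardial and mesothelial level. Pearson's r was 0.86 (permutation p = 1e-05, the smallest these permutations can give, adjusted 0.00084) and Spearman's rho was 0.83 (adjusted 0.0042). Without the 2 arrays farthest from the median level r was 0.85, and with group means removed it was 0.81. The lists were chosen with earlier results of these data known, and the permutations moved arrays across dose groups. The p-values of these relations are therefore a description and not an independent test. For Aldh1a2 the relation to the same level was r = 0.38 (permutation p = 0.0944, adjusted 0.289), and 0.10 with group means removed.

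That list had 8 of its 10 genes with a probe set above the filter, and its summed signal was 2924 to 4376 in controls, 3625 to 4617 at 1.5 µg/kg, 3552 to 5542 at 3 µg/kg and 3402 to 4096 at 6 µg/kg. Within the list the keratins Krt8 and Krt19, made by mesothelium and by other simple epithelia, followed Aldh1a1 most closely (r = 0.89 and 0.80). Krt18 and Msln had r = 0.63 and 0.62, and Upk3b and Tcf21 had 0.44 and 0.37. Wt1 and Bnc1, transcription factors of mesothelium, had r = 0.19 and 0.05. The median level of the list itself differed by dose, at -0.07 in controls and 0.11, 0.20 and -0.11 at 1.5, 3 and 6 µg/kg. With this level as a covariate the Aldh1a1 difference was 0.03 in place of 0.51 at 1.5 µg/kg and 0.01 in place of 0.70 at 3 µg/kg. A covariate that moves with dose cannot separate the 2, and its part in the Aldh1a1 difference was not tested.

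Beside it stood the lung epithelial list, which had 7 of its 10 genes with a probe set above the filter and summed signals of 8918 to 12754 in controls, 8817 to 13766, 8813 to 14733 and 9443 to 14685 at 1.5, 3 and 6 µg/kg. Its relation to Aldh1a1 was r = 0.65 (permutation p = 0.00262, adjusted 0.066) and rho = 0.65 (adjusted 0.0781), with r = 0.71 without the 2 farthest arrays and 0.57 with group means removed. Scgb1a1, the club cell secretory protein, had r = 0.75 and ran from 18.8 to 844, and Sftpc, a surfactant protein of alveolar type II cells, had r = 0.63 and ran from 128 to 3512. Sftpb had 0.54, Ager 0.45 and Lyz2 0.37, while Cdh1 (0.00) and Hopx (-0.04) did not follow Aldh1a1. Hopx, which is also expressed in heart muscle, read 7097 to 9555 and so made up most of the summed signal; Scgb1a1 and Sftpb went down to 18.8 and 39.5 in single arrays. The median lung epithelial level was -0.27 in controls and 0.21, 0.72 and -0.41 at 1.5, 3 and 6 µg/kg. With this level as a covariate the Aldh1a1 difference was 0.27 at 1.5 µg/kg and 0.33 at 3 µg/kg. Where the marker RNA came from, and the part of this level in the Aldh1a1 difference, were not tested. The smooth muscle level had a similar relation to Aldh1a1, with r = 0.62 (permutation p = 0.00393, adjusted 0.066). Its rho was 0.56 (adjusted 0.183 by permutation), and with group means removed r was 0.68.

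In 1 of the 11 lists, that of leukocytes, all TCDD arrays lay above all controls. Other lists shifted within ranges that overlapped those of controls. Of the 8 kept epicardial and mesothelial genes 8, 8 and 4 were above 0 at 1.5, 3 and 6 µg/kg. Of the 6 kept liver genes 6, 5 and 5 were, and of the 7 kept smooth muscle genes 6, 3 and 0. Of all kept probe sets 51.9%, 51.2% and 49.7% were above 0. The leukocyte list, with 13 of its 15 genes above the filter, had a summed signal of 3669 to 4239 in controls, 4694 to 5165, 4850.2 to 5379 and 5076 to 5553 at 1.5, 3 and 6 µg/kg, so that every TCDD array lay above every control. By limma 1 of the 13 genes, Cd74, was called at 1.5 and at 6 µg/kg and 0 at 3 µg/kg, against the shares of all probe sets given above. This list was chosen with earlier results of these data known, so its separation is a description and not a test. Over the 20 arrays the Pearson correlation of the leukocyte level with the retinoid probe sets ran from 0.12 (Rxra, first probe set) to 0.46 (Rbp4). None passed adjustment over the 84 relations (lowest adjusted p 0.242 by permutation). The part of the leukocyte level in the differences by dose was not tested.

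**Figure D4:**
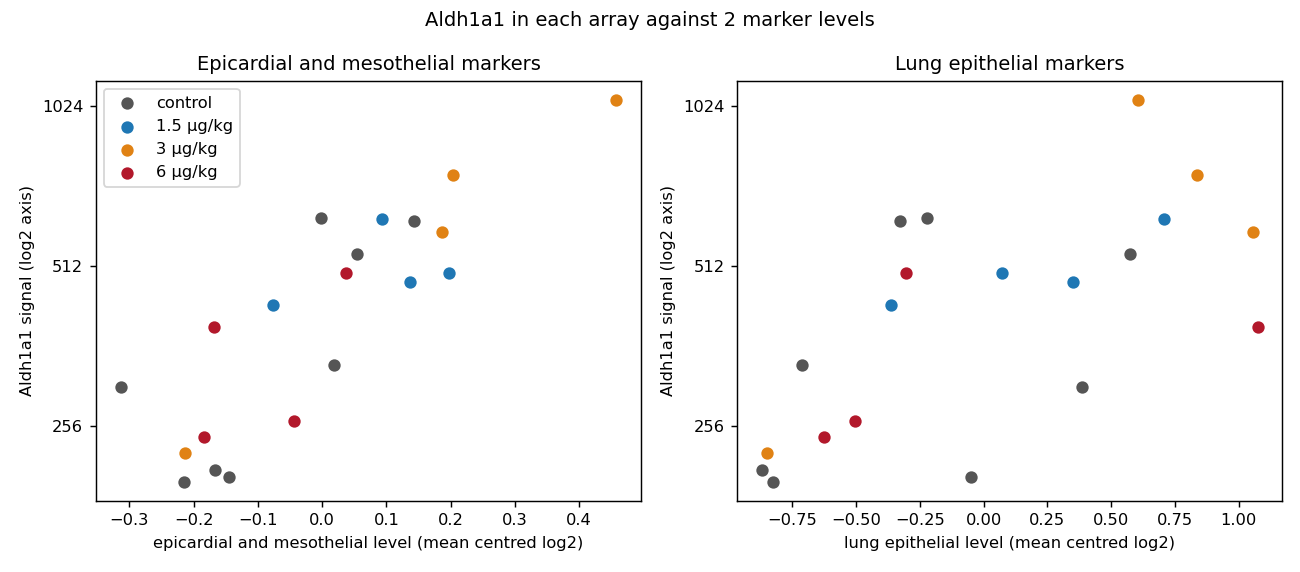
Aldh1a1 signal (log2 axis) of each of 20 arrays against the level of the epicardial and mesothelial list (left) and of the lung epithelial list (right), each the mean of centred log2 signals of the list's kept genes. Aldh1a1 follows the first with r = 0.86 and the second with r = 0.65, and control and TCDD arrays lie along the same bands.

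Rxrb was low in the 4 arrays whose β-actin RNA read high at its 3′ end, and Rara in 3 of them; the ratio of 3′ to middle signal is commonly read as a measure of RNA quality. The log2 ratio of the 3′ to the middle β-actin probe set was 0.896 to 1.34 in 4 arrays (controls 1, 2 and 6 and array 4 at 6 µg/kg) and 0.351 to 0.610 in the other 16. In these 4 arrays Rxrb read 690.1 to 914 and Rara 114 to 245, against 900.0 to 1850.5 and 197 to 466 in the others. They were 4 of the lowest 5 arrays for Rxrb and held 3 of the lowest 4 for Rara; the exception was control 1, whose Rara signal of 245 lay above the control median. Within the 16 arrays the correlation with the ratio was -0.18 for Rxrb and 0.16 for Rara, a description with no test, and since the arrays fall into these sets no r over all 20 is given.

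Without the 4 arrays the difference from controls at 1.5 µg/kg was 0.61 for Rara in place of 0.79, -0.04 for Rxrb in place of 0.17 and 0.21 for Aldh1a1 in place of 0.51. Without them the Aldh1a1 difference at 6 µg/kg was -0.51 in place of -0.04. None of these was called. The part of the ratio in these differences was not tested further.

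**Figure D5:**
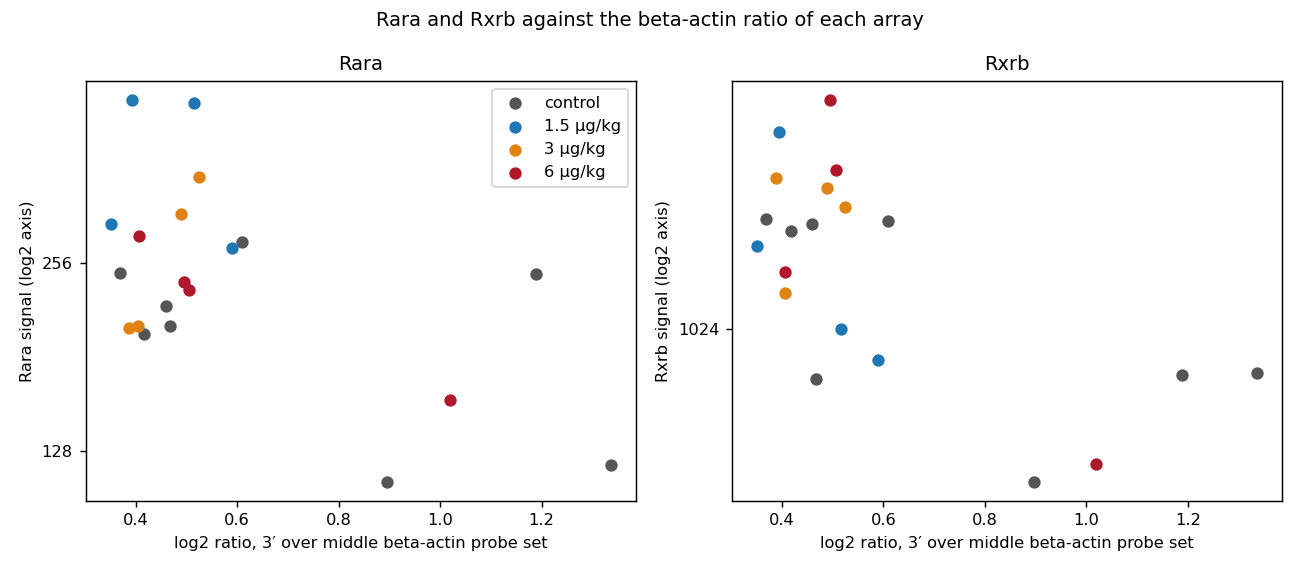
Signal of Rara (left) and Rxrb (right), log2 axis, against the log2 ratio of the 3′ to the middle β-actin probe set in each of 20 arrays. The 4 arrays at a ratio of 0.896 or more hold 3 of the lowest 4 Rara signals and 4 of the lowest 5 Rxrb signals.

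Other genes of the pathway were read from 5 lists of 95 genes together, of which 66 had a probe set and 38 were above the filter. By limma 0 of the 38 were called at 1.5, 3 or 6 µg/kg, against the shares of all probe sets given above. Of the 38, 4, 3 and 4 had an unadjusted p under 0.05, against 12.6%, 5.72% and 9.15% of all kept probe sets. At the 3 doses 24, 24 and 22 of them were above 0, beside 51.9%, 51.2% and 49.7% of all. The counts above 0 for each list below stand beside these same shares and were not tested.

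Among 10 measured genes of retinol and retinaldehyde oxidation, storage and breakdown, 6, 6 and 7 were above 0 at 1.5, 3 and 6 µg/kg. Adh7, an alcohol dehydrogenase active on retinol, read on average 196 ± 33.6 (SD, n = 8) without TCDD and had log2 fold changes of 0.43, 0.53 and 0.38. Adh5, the ubiquitous alcohol dehydrogenase, had -0.18, -0.18 and -0.09 in its brighter probe set and 0.01, -0.05 and 0.02 in the other. The brighter probe set of Lpl, the lipoprotein lipase that also frees retinyl esters, had -0.17, -0.10 and 0.21. The other Lpl probe set had 0.40, 0.26 and 0.11. For Rdh11, a retinaldehyde reductase, 1 probe set gave -0.11, -0.19 and 0.44 and the brighter one -0.02, -0.04 and -0.26. In the joint test limma's adjusted p of these genes was 0.27 or more.

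Among the carriers, 2 genes outside the member list were measured. Fabp5, a fatty acid binding protein that also binds retinoic acid, had log2 fold changes of -0.19, -0.15 and 0.20 (joint adjusted p 0.28 by limma), and Lrp2, the megalin receptor that takes up retinol bound to its carrier, had -0.02, 0.02 and -0.05. Of 7 receptors and cofactors 5, 5 and 3 were above 0; the coactivator genes Ncoa1 and Ncoa3 had 0.35, 0.09 and -0.20 and 0.25, 0.11 and 0.27. Med1, a Mediator subunit, had 0.62, 0.36 and 0.42 with a standard error of 0.44, and of the 2 probe sets of Ncoa6 the brighter had 0.05, 0.04 and -0.05 and the other 0.16, 0.11 and -0.22.

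Of 7 nuclear receptors that pair with Rxr 5, 6 and 3 were above 0. Thra, a thyroid hormone receptor, had log2 fold changes of 0.16, 0.13 and -0.06 in its brighter probe set and 0.03, -0.09 and -0.07 in the other. Ppara, the fatty acid sensing receptor, had 0.43, 0.30 and -0.26. Nr1h4, the bile acid receptor, had -0.10, -0.84 and 0.06, and Nr1i3, a xenobiotic receptor, 0.13, 0.24 and 0.43 in its brightest probe set. The lowest joint adjusted p of these by limma was 0.496.

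Of 12 known retinoic acid targets 8, 6 and 8 were above 0. Tgm2, the tissue transglutaminase and a classical retinoic acid response gene, read on average 236 ± 52.6 (SD, n = 8) without TCDD, against 328 ± 49.8 (SD, n = 4) at the highest dose, with log2 fold changes of -0.26, 0.04 and 0.44. The homeobox genes Hoxa4 and Hoxa2 had 0.28, 0.02 and 0.36 and 0.19, -0.03 and 0.19, and Gata4, a cardiac transcription factor, had 0.28, 0.12 and -0.03. None was called, with a lowest joint adjusted p of 0.27 by limma, and Cyp26 genes, which break down retinoic acid, gave no kept probe set.

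For the arrays as a whole, cardiac markers were bright throughout (Myh6 12582 to 18634, Tnnt2 15190 to 20810), correlations between arrays were 0.941 to 0.981 and array medians 171 to 210.0. The dosing showed in Cyp1a1, a textbook aryl hydrocarbon receptor target: it read on average 39.6 ± 23.0 (SD, n = 8) without TCDD against 224 ± 134, 275 ± 90.3 and 507 ± 149.8 (SD, n = 4 each) by rising dose, called by limma at every dose (highest adjusted p 0.00681) in the brighter of its 2 kept probe sets and at no dose in the other. Because the design text gives 4 arrays for each dose while 8 controls are labelled, controls 1 to 4 were also set against controls 5 to 8. With limma 0 of the 7 retinoid probe sets were called there (lowest adjusted p 0.463, 0 with an unadjusted p under 0.05), against 1.57% of all (127).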

How the data were processed

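The deposited values are MAS5 signals, linear intensities that the authors computed for each probe set, per the submitters' processing notes; the MAS5 version is not given in the sources used here. Per the labels' protocols, RNA was isolated with Trizol, Superscript Choice reagents were used for cDNA and an ENZO kit for labelled cRNA. The deposited 2% trimmed means of 500.28 to 500.341 differ by less than 1 unit, and no count or read depth exists for arrays, so precision rests on the number of arrays.

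From these intensities a trimmed mean of 500 was set in every array and log2(signal + 32) was used. Probe sets that had at least 4 arrays at or above their own 40th percentile were kept, 8097 of 12422 after the 66 AFFX controls were left out. A model over the 20 arrays was fitted by limma 3.58.1 under R 4.3.3, using lmFit, contrasts.fit and eBayes with its intensity trend. Tests were two-sided with Benjamini-Hochberg adjustment within each comparison and a threshold of 0.05, and the code was tested on simulated data.

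Gene symbols came from the platform annotation (10833 probe sets with 1 symbol, 396 with several, 1193 with none) and positions from RefSeq GRCm38.p6, where 10817 were found. Named genes are all member probe sets, up to 4 genes per pathway list by the smallest p in the joint test and the 3 of most similar pattern per member. All kept genes of the epicardial and mesothelial list and of the lung epithelial list are named. From other marker lists up to 3 are named. The members and the lists were chosen with earlier results of these data known. Correlations were computed in Python 3.11.15. Alternatives were quantile normalization, pseudocounts of 1 and 100, no level filter or 1 at the 60th percentile, controls 1 to 4 or 5 to 8 alone, a replicate block, 4 covariates, array weights and leaving out each array; leaving out the 4 arrays of high β-actin ratio was chosen after seeing the data.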

Additional observations from a re-analysis of the deposited data

Results flagged for a closer look

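In 40 groups of 4 or 8 arrays, 2 arrays stood apart from the rest of their group, both in probe sets below the level filter; chance alone marks about 1 group in 20. The second Aldh1a1 probe set (161956_at) read 83.7 in array 4 at 3 µg/kg, while the other 3 arrays of that dose read 49.4 to 53.1. Crabp2 read 48.9 in array 4 at 1.5 µg/kg, while the other 3 read 7.00 to 12.5.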

How the results depend on the processing

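The count of retinoid probe sets called was 0 of those kept in all 34 alternatives for every dose comparison and in all 25 for the control sets, with a lowest adjusted p of 0.0847 at 1.5, 0.41 at 3 and 0.30 at 6 µg/kg. The count over all probe sets moved more. At 1.5 µg/kg (17) it was 8 without a filter, 3 with controls 1 to 4 alone, 153 with controls 5 to 8 alone, 2 with the replicate block, 37, 8 and 47 with the liver, the epicardial and mesothelial level or the β-actin ratio as a covariate, 26 with array weights and 30 without the 4 arrays of high ratio. Leaving out 1 array gave 4 to 51 (10 without control 3 or 5, 8 without control 6, 51 without array 3 at this dose, 4 without its array 1 or 2). At 3 µg/kg (2) it was 4 and 30 with controls 1 to 4 or 5 to 8 alone, 6 with liver and 5 with β-actin as a covariate, 4 with weights and 6 without the 4 arrays, and 2 to 3 with 1 array left out. At 6 µg/kg (6) it was 187 and 3 with either control set, 122 with the replicate block, 10 with weights and 3 without the 4 arrays, and 4 to 12 with 1 array left out (12 without array 4 of the dose). The causes were not tested. Of 1180 single changes under alternatives 1133 kept their sign and 47, none called, did not. Against controls at 1.5 µg/kg these were Rbp4 (-0.0567 with liver and -0.00784 with epicardial covariate; -0.0669 to 0.18 with 1 array left out), the second Rxra probe set (0.12 with controls 1 to 4 alone and 0.12 with the replicate block; -0.14 to 0.0621) and Rxrb (-0.0626 with liver, -0.0532 with β-actin, -0.0433 without the 4 arrays). At 3 µg/kg it was the second Rxra probe set (0.14 with controls 1 to 4 and 0.14 with the block; -0.16 to 0.0851). At 6 µg/kg these were Aldh1a1 (0.0336 with controls 5 to 8 and 0.0285 with liver; -0.21 to 0.10), Aldh1a2 (0.0829 without the 4 arrays; -0.40 to 0.0334) and the first Rxra probe set (-0.0268 with quantile normalization, -0.0465 with controls 1 to 4 and with the block, -0.0198 with β-actin and -0.0200 with weights, -0.27 without the 4 arrays; -0.13 to 0.20). Between 6 and 1.5 µg/kg 1 array left out gave -0.0126 to 0.24 for Rbp4 and -0.13 to 0.31 for Rxrb. Between 6 and 3 µg/kg Rbp4 turned to 0.0374 with the epicardial covariate and 0.0105 with weights (-0.24 to 0.0669 with 1 array left out), and Rxrb to 0.00752 with β-actin and 0.13 without the 4 arrays (-0.31 to 0.13). Rbp4 and Aldh1a2 were not kept by the 60th percentile filter, so they have no value there. Arrays with the same number did not vary together (correlations of deviations -0.22 to 0.21 over 24 pairs, 5 of 16 arrays closest to their own number), so the numbers were not taken as pairs. Signals below the filter, those of Crabp1 and Crabp2 included, limit what can be read of these genes.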
